A study of Rattus norvegicus with 12 samples.

Results

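Aldehyde dehydrogenases and aldo-keto reductases are the enzymes that a liver cell uses to remove reactive carbonyl groups. The genes described here are those whose transcript cluster on the array carries a single symbol made of Aldh or Akr, a number, a letter and a number, which gave 34 of 18166 named genes, 16 aldehyde dehydrogenases and 18 aldo-keto reductases. Each was measured by 1 cluster. They were profiled in liver RNA of male obese Zucker rats, homozygous for the fa allele of the leptin receptor gene, on Affymetrix Rat Gene 2.0 ST arrays, each array holding the RNA of 1 rat. Of the 24 rats of the trial, 12 per feeding group, 6 per diet were arrayed. The PSC-fed rats had a diet with 5% PSC, a supplement that the series title ties to a biotechnologically produced oyster mushroom. The controls had a diet of comparable energy and nutrient content. Each rat was fed its diet for 4 weeks from an age of 5 to 6 weeks. All rats of both groups carried the same genotype, no lean rats were analysed here, and rats were caged in pairs, so that cage mates may not be independent.

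An aldehyde dehydrogenase oxidises an aldehyde to its acid with NAD or NADP, and an aldo-keto reductase reduces an aldehyde or ketone to the alcohol with NADPH. In the liver these families act on acetaldehyde, products of lipid peroxidation, retinal, sugars, steroids, bile acid intermediates and the semialdehydes of amino acid breakdown. Several of their genes are known in rodents as targets of the xenobiotic and electrophile sensors Nrf2 and the Ah receptor. The question of the comparison was what the mushroom supplement does in the obese liver.

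The deposited values are log2 signals, and a difference of 1 on this scale is a doubling. The arrays had median log2 signals of 4.71 to 4.85 and correlated across genes at 0.987 to 0.995. The 7 measured hepatocyte markers of a list of 10 averaged 11.5 to 11.7 per array in PSC-fed rats and 11.5 to 11.6 in controls, and the dimmest of the 7 had a mean of 9.71. The liver samples are bulk tissue, in which fewer cells of a type and less RNA per cell cannot be told apart. Probes for a close relative can bind the same transcript, which touches the Akr1c and Akr1b genes most. The number of arrays limits the precision.

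No member of either family passed the test between the diets. Of the 34 members 0 rose and 0 fell at an adjusted p below 0.05 (limma, two-sided, adjusted over all 18166 genes), where 2.6% of all genes passed, 0.716% higher and 1.89% lower. At an adjusted p below 0.1 there were 5 members (14.7%) against 6.28% of all genes, and at an unadjusted p below 0.05 there were 11 members (32.4%) against 19.1% of all genes, 7 with a positive difference (9.02% of all genes) and 4 with a negative one (10.1% of all genes). A fold of at least 1.3 at that unadjusted p was reached by 2 members, Aldh1l2 and Akr1c2 (5.88%), against 2.76% of all genes. The members were chosen with earlier results of these data known, so their shares, here and below, are not independent of them. The differences were small in size and mixed in sign, with 15 above 0, 18 below and Akr1a1 at 0. The median difference was -0.015 over the members and 0.013 over all genes, and the median absolute difference was 0.11 over the members and 0.09 over all genes. The largest was 0.39, a 1.31-fold higher signal in PSC-fed rats, for Aldh1l2.

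The 95% intervals bound how far the members could have moved. For 30 of the 34 the whole interval lay within a 1.5-fold change either way, for 22 within 1.3-fold and for 12 within 1.2-fold. Over all genes these shares were 95.5%, 79.0% and 47.3%. The members beyond 1.5-fold at 1 end of the interval were Aldh1l2, Akr1b8, Akr1c1 and Akr1c2. A missed threshold does not show that a gene was alike in both diets.

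**Figure D1:**
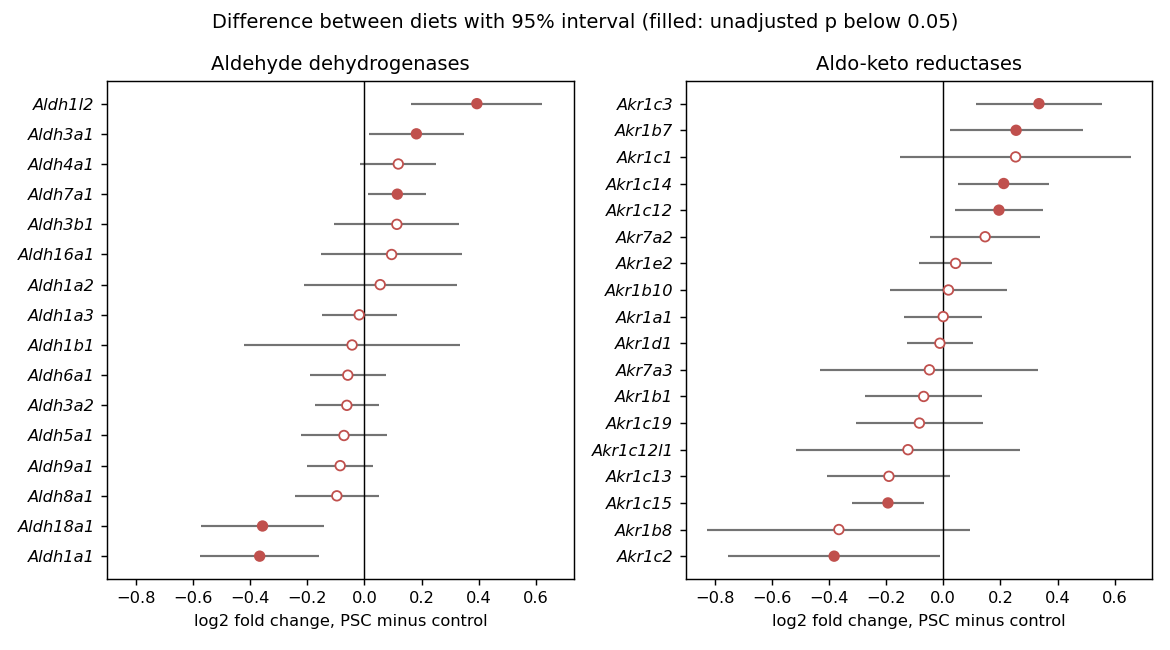
Difference between the diets (PSC minus control, log2 scale) for the 16 aldehyde dehydrogenases (left panel) and the 18 aldo-keto reductases (right panel), with lines for the 95% interval and filled points for an unadjusted p below 0.05. The points run from -0.38 for Akr1c2 to 0.39 for Aldh1l2, and 11 are filled.

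Aldh1a1, the cytosolic enzyme that oxidises retinal to retinoic acid, had the smallest p of the members. Its log2 signal ran from 10.02 over a median of 10.13 to 10.42 in PSC-fed rats, against 10.27, 10.47 and 10.86 for the lowest, median and highest control. Of the PSC arrays 5 lay below every control, and PSC replicate 4 lay at 10.42, among the controls. The difference was -0.37 (SE 0.10, 95% interval -0.57 to -0.16, adjusted p = 0.0584), which is 1.29-fold lower. Without PSC replicate 4 the gene passed, at -0.42 (adjusted p = 0.0288), as it did without control replicate 2, the lowest control (-0.42, adjusted p = 0.0332). In the other 10 of the 12 fits that each left out 1 array it did not pass (adjusted p up to 0.132). Leaving out dim genes (adjusted p = 0.0432) or fitting a trend in the variance (adjusted p = 0.0343) also brought it past the threshold.

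The other members that take retinal or acetaldehyde showed no such gap. Aldh1a2 and Aldh1a3, both retinal dehydrogenases, had differences of 0.055 (SE 0.13) and -0.018 (SE 0.06). Aldh1b1, a mitochondrial enzyme that takes acetaldehyde, differed by -0.043 (SE 0.18) over a wide spread among rats. Aldh2, the main mitochondrial acetaldehyde dehydrogenase, is outside the naming rule and belongs to a list of neighbouring genes, with a value of 0.16 (SE 0.06, adjusted p = 0.15).

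Aldh1l2, which encodes the mitochondrial enzyme that oxidises formyl tetrahydrofolate, separated the diets without overlap. Its lowest, median and highest log2 signals were 9.57, 9.69 and 9.83 in PSC-fed rats, against 8.74, 9.39 and 9.51 in controls. Every PSC array lay above every control, and control replicate 6 stood far below the other controls, of which the next lowest had 9.33. The difference was 0.39 (SE 0.11, 95% interval 0.16 to 0.62, adjusted p = 0.0644). Without control replicate 6 it was smaller, at 0.28, and passed the threshold (adjusted p = 0.047). It also passed when dim genes were left out (adjusted p = 0.0481) and with a trend in the variance (adjusted p = 0.04). In the other 11 of the 12 fits that each left out 1 array it did not pass (adjusted p up to 0.119).

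Groups without overlap were found for 3 members (8.82%) against 2.19% of all genes. PSC lay above for Aldh1l2 and Aldh7a1 (0.71% of all genes) and below for Akr1c15 (1.48% of all genes). Aldh7a1, known as antiquitin and needed for lysine breakdown, averaged 10.44 ± 0.05 in PSC-fed rats and 10.32 ± 0.03 in controls (SD, n = 6 each). Its difference of 0.12 (SE 0.05, adjusted p = 0.205) is 1.08-fold, and its spread within a diet was in the lowest 0.165% of all genes, counted from the least variable. The empirical Bayes fit draws such small spreads towards the typical one, and the SE given is the one after that step.

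The aldehyde dehydrogenases of amino acid and carnitine metabolism were mixed, with 2 of 7 above 0 and 5 below. Aldh18a1, which carries out the opening steps of proline synthesis from glutamate, ran from 5.11 over 5.31 to 5.62 in PSC-fed rats, against 5.36, 5.75 and 5.84 in controls (lowest, median, highest). All PSC arrays lay below the control median and 3 of them below every control, while control replicate 2 at 5.36 lay among the PSC arrays. The difference was -0.36 (SE 0.10, 95% interval -0.57 to -0.14, adjusted p = 0.0737). It passed without control replicate 2 (-0.42, adjusted p = 0.0266), without PSC replicate 2 (-0.41, adjusted p = 0.0447) and with array weights (-0.39, adjusted p = 0.0453). In the other 10 of the 12 fits that each left out 1 array it did not pass (adjusted p up to 0.155).

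Aldh4a1, which completes the breakdown of proline and hydroxyproline, had a difference of 0.12 (SE 0.06, adjusted p = 0.32). Aldh5a1, which oxidises the succinic semialdehyde formed from GABA, had -0.07 (SE 0.07). Aldh6a1, of valine and thymine breakdown, and Aldh8a1, of the kynurenine pathway, had -0.058 and -0.097. Aldh9a1, of carnitine synthesis, had -0.085 (SE 0.05). For Aldh6a1 and Aldh9a1 the whole interval lay between -0.20 and 0.07.

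Among the enzymes of lipid aldehydes, Aldh3a2, the microsomal fatty aldehyde dehydrogenase, had 10.95 ± 0.07 in PSC-fed rats and 11.01 ± 0.05 in controls, a difference of -0.062 (SE 0.05). Aldh3a1, an Ah receptor target best known from the cornea and induced in rat liver by dioxin, had 4.32 ± 0.17 in PSC-fed rats and 4.14 ± 0.09 in controls, a difference of 0.18 (SE 0.08, adjusted p = 0.22). Aldh3b1 had 0.11 (SE 0.10), and Aldh16a1 0.095 (SE 0.12). A further cluster carries the symbols Aldh3b2 and Aldh3b3 together and so is no member. It had 5.41 ± 0.07 in PSC-fed rats and 5.51 ± 0.08 in controls, a difference of -0.11 (adjusted p = 0.401 over all 30347 clusters).

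**Figure D2:**
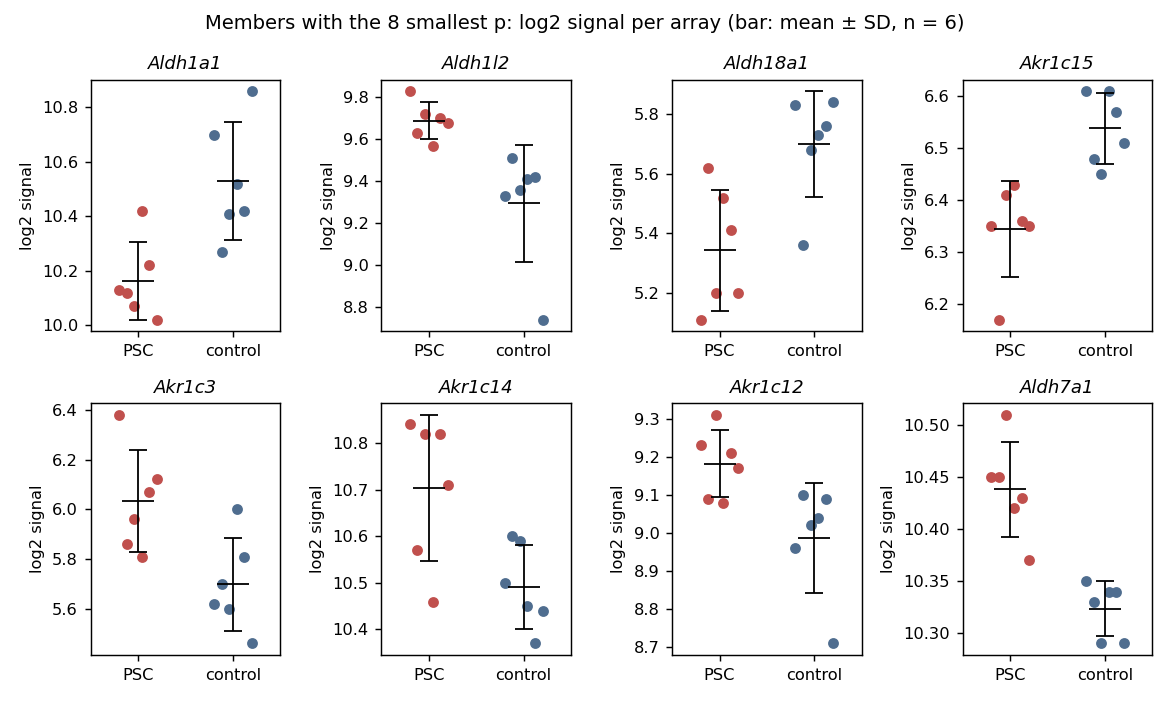
Log2 signal on each array for the 8 members with the smallest p, PSC-fed rats left of controls in each panel (1 point per array, bar and whiskers for the mean and SD, n = 6 each, vertical scales differ between panels). The diets do not overlap for Aldh1l2, Akr1c15 and Aldh7a1, and 1 low control stands apart for Aldh1l2 (8.74), Aldh18a1 (5.36) and Akr1c12 (8.71).

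The Akr1c genes of steroid metabolism held 5 of the 11 members with an unadjusted p below 0.05. This is 55.6% of the 9, against 19.1% of all genes. Among the other groups of several genes it was 2 of 7 for amino acid and carnitine enzymes and 1 of 8 for sugar and aldehyde reductases. For retinal and acetaldehyde enzymes it was 1 of 4, and for lipid aldehydes 1 of 3. As probes for close relatives can bind the same transcript, the 5 Akr1c genes need not be independent. The Akr1c differences pointed both ways, 4 of 9 above 0 and 5 below. In the rat assembly GRCr8 all 9 lie on chromosome 17 beside Akr1e2. Akr1c12, Akr1c3, Akr1c14 and Akr1c15 follow each other there with no other coding gene between them. Of these neighbours, Akr1c12, Akr1c3 and Akr1c14 had positive differences and Akr1c15 a negative one. Their promoters are shown because neighbours with opposite signs can be set side by side, together with that of Aldh1a1, which had the smallest p.

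The sequences are the 150 bases before the transcript start in the RefSeq promoter table of build GRCr8, read 5′ to 3′ on the strand of the gene, and 28 of the 34 members matched an entry. They lie for Akr1c12 at chr17:70971413-70971562 on the minus strand, Akr1c3 at chr17:71020734-71020883 on the plus strand, Akr1c14 at chr17:71083185-71083334 on the minus strand, Akr1c15 at chr17:71117958-71118107 on the minus strand and Aldh1a1 at chr1:227537470-227537619 on the plus strand. Capitals mark matches, on either strand, to the core of the electrophile response element that Nrf2 binds (TGACNNNGC), the core of the Ah receptor site (GCGTG), the CCAAT box (CCAAT) and the TATA box (TATAAA).
Akr1c12: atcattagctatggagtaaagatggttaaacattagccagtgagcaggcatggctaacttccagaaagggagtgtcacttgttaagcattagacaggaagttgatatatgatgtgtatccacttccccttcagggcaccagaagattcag
Akr1c3: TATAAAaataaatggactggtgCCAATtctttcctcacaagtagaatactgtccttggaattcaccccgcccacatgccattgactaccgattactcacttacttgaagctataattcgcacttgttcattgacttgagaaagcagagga
Akr1c14: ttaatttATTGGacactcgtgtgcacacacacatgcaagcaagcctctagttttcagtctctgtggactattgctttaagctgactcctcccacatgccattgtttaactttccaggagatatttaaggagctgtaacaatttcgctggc
Akr1c15: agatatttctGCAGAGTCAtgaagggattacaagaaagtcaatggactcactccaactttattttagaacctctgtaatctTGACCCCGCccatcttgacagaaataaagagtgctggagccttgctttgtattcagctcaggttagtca
Aldh1a1: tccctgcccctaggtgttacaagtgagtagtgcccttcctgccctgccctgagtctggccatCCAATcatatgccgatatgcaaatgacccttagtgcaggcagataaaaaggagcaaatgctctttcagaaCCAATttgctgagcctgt

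Akr1c15 held 2 matches to the electrophile core, 1 on each strand, which did not overlap and began 140 and 69 bases before the start. Of the 28 members with an entry only Akr1c15 and Aldh16a1 held this core in the window, and 6.58% of the 33465 promoters in the table did. The Ah receptor core was found in 7 of the 28 members, none of them among the 5 shown, and in 18.8% of all promoters. CCAAT was found in 13 of the 28, Akr1c3, Akr1c14 and Aldh1a1 among them, and in 23.5% of all. TATAAA was found in Akr1c3 alone and in 8.0% of all. In Akr1c3 it lay at the far end of the window, 150 to 145 bases before the start. Akr1c3 and Akr1c14 shared a run of 14 bases, cccacatgccattg, which began 81 and 61 bases before their starts. The longest run that Akr1c15 shared with Akr1c3 had 10 bases, and with Akr1c14 it had 8. Akr1c12, whose difference was positive, shared at most 8 bases with Akr1c3, 6 with Akr1c14 and 6 with Akr1c15. Aldh1a1, on chromosome 1, shared at most 7 bases with each Akr1c promoter shown, so runs of about this length also occurred between different chromosomes. Runs were sought on the strands as printed. A match is a description of the letters, not of binding.

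Akr1c15 itself separated the diets without overlap. Its lowest, median and highest log2 signals were 6.17, 6.36 and 6.43 in PSC-fed rats, against 6.45, 6.54 and 6.61 in controls. Every PSC array lay below every control, by a margin of 0.02 between the nearest arrays. The difference was -0.19 (SE 0.06, 95% interval -0.32 to -0.07, adjusted p = 0.0895), 1.14-fold lower.

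Akr1c3, listed in RefSeq also as Akr1c18, the rat enzyme that inactivates progesterone, averaged 6.03 ± 0.21 in PSC-fed rats and 5.70 ± 0.19 in controls. Its difference was 0.34 (SE 0.10, 95% interval 0.11 to 0.56, adjusted p = 0.0951), with 3 PSC arrays above every control. Akr1c14, listed also as Akr1c9, the hydroxysteroid dehydrogenase of rat liver that acts on steroids and bile acid intermediates, averaged 10.70 ± 0.16 in PSC-fed rats and 10.49 ± 0.09 in controls, a difference of 0.21 (SE 0.08, adjusted p = 0.142). Akr1c12 averaged 9.18 ± 0.09 in PSC-fed rats and 8.99 ± 0.15 in controls, a difference of 0.20 (SE 0.07, adjusted p = 0.156). For Akr1c14 and Akr1c12 alike, 4 of 6 PSC arrays lay above every control.

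The other Akr1c genes had wider intervals, apart from Akr1c13 and Akr1c19, whose SE of 0.10 equalled that of Akr1c3. Akr1c2 averaged 8.21 ± 0.35 in PSC-fed rats and 8.60 ± 0.35 in controls, a difference of -0.38 (SE 0.17, 95% interval -0.75 to -0.01, adjusted p = 0.248). Its neighbour Akr1c1 pointed the other way at 0.25 (SE 0.19, adjusted p = 0.488). Akr1c13, Akr1c19 and Akr1c12l1 had -0.19, -0.083 and -0.12, with adjusted p of 0.323, 0.694 and 0.749. Akr1d1, the steroid reductase of bile acid synthesis on chromosome 4, differed by -0.012 (95% interval -0.13 to 0.11), with 11.81 ± 0.04 in PSC-fed rats and 11.83 ± 0.09 in controls.

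**Figure D3:**
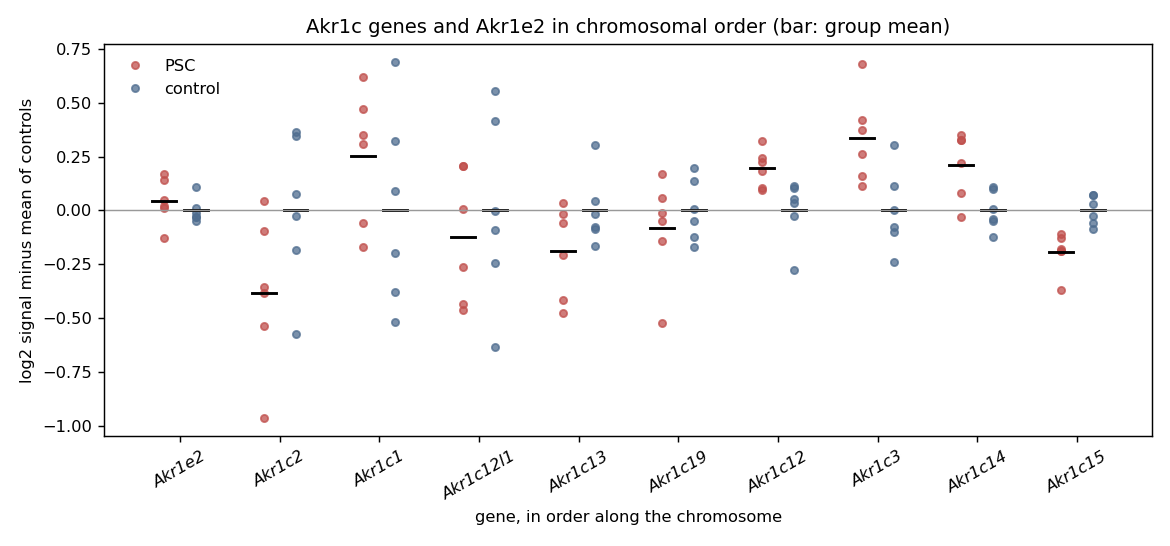
Log2 signal minus the mean of the controls for Akr1e2 and the 9 Akr1c genes in their order along chromosome 17, PSC-fed rats (red) left of controls (blue) for each gene, with 1 point per array and a bar for the group mean. The bars of PSC-fed rats lie at 0.20, 0.34 and 0.21 for the neighbours Akr1c12, Akr1c3 and Akr1c14, and at -0.19 for Akr1c15.

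The reductases of sugars and simple aldehydes gave 1 of 8 members with an unadjusted p below 0.05, against 19.1% of all genes. That member was the dim Akr1b7. Akr1a1, the aldehyde reductase of the glucuronate branch that leads to vitamin C in rodents, had the same mean of 9.40 in both diets (95% interval of the difference -0.14 to 0.14). Akr1b1, the aldose reductase of the polyol pathway, had -0.068 (SE 0.10), and Akr1e2, which reduces anhydrofructose, had 0.043 (SE 0.06). Akr1b7, an aldose reductase relative known from the vas deferens, lay at 2.18 ± 0.25 in PSC-fed rats and 1.92 ± 0.16 in controls (difference 0.26, SE 0.11, adjusted p = 0.22), and with Akr1b8, Akr1c12l1 and Aldh1a2 it belonged to the dimmest 25% of all genes, below a mean of 3.97. Akr1b10 and Akr1b8, also relatives of aldose reductase, had 0.018 (SE 0.10) and -0.37 (SE 0.22, adjusted p = 0.374). Akr7a2 and Akr7a3, of the aflatoxin aldehyde reductase subfamily, had 0.15 (SE 0.09) and -0.048 (SE 0.18).

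Several members varied more between rats of the same diet than nearly all other genes. The pooled SD within a diet was above the 98th percentile of all genes for 6 of the 34, and below the 5th percentile for 4. Its median was 0.18 over the members and 0.14 over all genes. The 6 variable genes were Akr1b8, Akr1c1, Akr1c12l1, Akr7a3, Aldh1b1 and Akr1c2. The 4 steady ones were Aldh7a1, Aldh3a2, Aldh9a1 and Akr1d1.

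Akr7a3, the rat gene known for its induction by antioxidants and its action on aflatoxin dialdehyde, ran from 8.02 over a median of 8.43 to 9.11 in PSC-fed rats, against 8.21, 8.46 and 9.06 in controls. The groups overlapped almost wholly, with PSC replicate 4 and control replicate 6 highest. The range corresponds to 2.13-fold among PSC-fed rats and 1.80-fold among controls. Aldh1b1 ran from 6.10 over 6.93 to 7.30 in PSC-fed rats, with replicate 2 lowest, against 6.53, 6.94 and 7.30 in controls. Akr1b8 ran from 2.78 over 3.32 to 4.08 in PSC-fed rats, against 3.26, 3.83 and 4.12 in controls, and 3 PSC arrays lay below every control while PSC replicates 3 and 4 lay among the highest. Akr1b8 and Akr1c12l1 are among the dimmest 25% of genes, and the other 4 variable members are not.

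**Figure D4:**
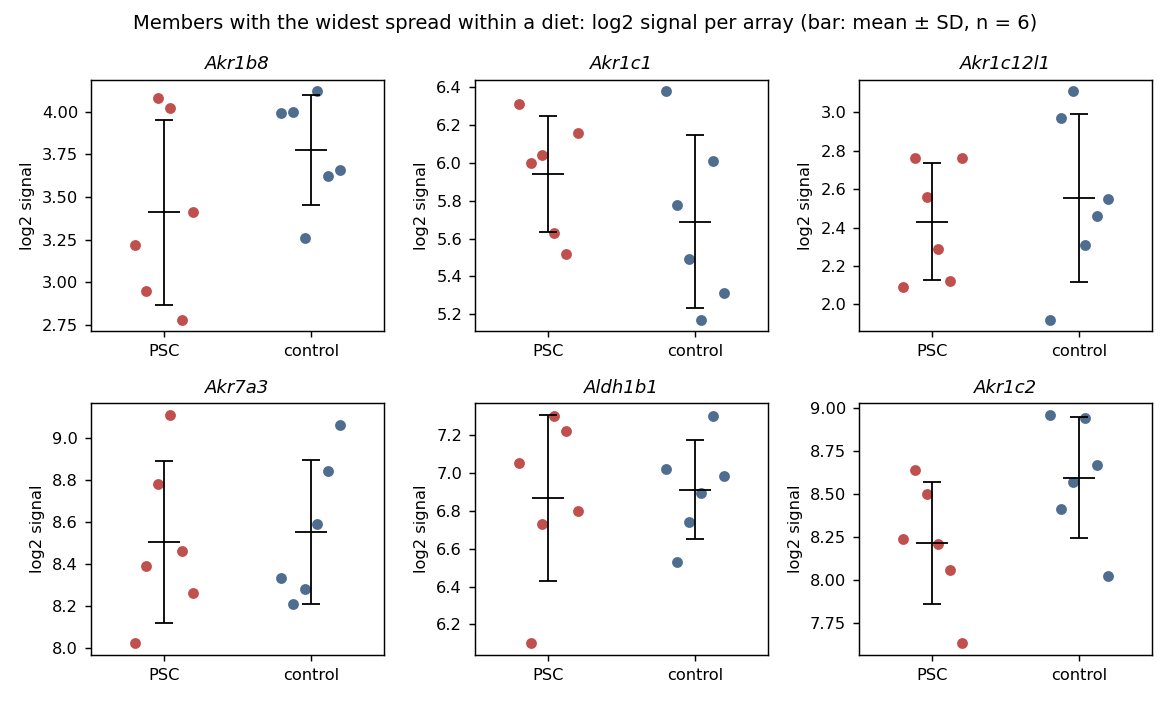
Log2 signal on each array for the 6 members with the widest spread within a diet, PSC-fed rats left of controls (1 point per array, bar and whiskers for the mean and SD, n = 6 each, vertical scales differ between panels). In every panel the diets overlap, and for Akr7a3 the range is 2.13-fold among PSC-fed rats and 1.80-fold among controls.

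The 11 members with an unadjusted p below 0.05 were picked by the difference between the same diets, which by itself favours arrays outside the other diet's range. Over these members the arrays differed in how often they lay within that range. The same count was not made over all genes. PSC replicates 2 and 4 lay within the range of the controls for 6 of the 11 each, PSC replicate 3 for 4, PSC replicate 5 for 3, and PSC replicates 1 and 6 for 2 each. Control replicate 2 lay within the range of the PSC arrays for 6, control replicates 3 and 5 for 5 each, control replicate 4 for 3, control replicate 6 for 2 and control replicate 1 for 1.

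Of 147 distinct measured genes in 9 lists of genes that work beside these enzymes, 8 passed (5.44%), against 2.6% of all genes, and 36 had an unadjusted p below 0.05 (24.5%), against 19.1% of all genes. The lists were chosen with earlier results of these data known, so these shares are not independent of them. Of the 21 measured Nrf2 targets 0 rose and 0 fell (limma), and 3 had an unadjusted p below 0.05, with a median difference of -0.023. The efflux pump gene Abcc3 had the smallest p of them, at -0.75 (SE 0.29, adjusted p = 0.178), and the glutathione transferase gene Gsta2 had 0.32 (SE 0.15). Of the 5 measured Ah receptor targets 0 passed and Ahrr alone had an unadjusted p below 0.05. Ahrr, the receptor's repressor, and Cyp1a1 had 0.22 and 0.30, with adjusted p of 0.253 and 0.387. Of the 16 measured targets of the receptors CAR and PXR 3 passed (18.8%). Of these 1 rose, Ugt2b1 (0.88, SE 0.18, adjusted p = 0.0238), and 2 fell, Abcb1b (-1.94, SE 0.35, adjusted p = 0.0133) and Cyp3a18 (-1.12, SE 0.27). Cyp3a18, a steroid and drug hydroxylase, averaged 7.95 ± 0.59 in PSC-fed rats and 9.07 ± 0.55 in controls (adjusted p = 0.0435). With each of the 12 arrays left out in turn, it missed the threshold 8 times (adjusted p up to 0.105) and passed without replicates 2 or 4 of either diet. It also missed the threshold with all transcript clusters (adjusted p = 0.0725), repeated quantile normalization (0.052) and cyclic loess (0.0519). Ugt2b1 missed it 4 times, without PSC replicates 1 or 6 or control replicates 1 or 4 (adjusted p up to 0.0625).

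Next to Aldh1a1, 1 of 17 measured genes of retinoid handling rose and 0 fell. Rxra, which encodes the retinoid X receptor, averaged 9.83 ± 0.03 in PSC-fed rats and 9.51 ± 0.13 in controls (0.32, SE 0.06, adjusted p = 0.0186), and the diets did not overlap. Without control replicate 1 it just missed the threshold of 0.05. Cyp26b1, which degrades retinoic acid, and Rdh7, a retinol dehydrogenase, had 0.26 and 0.21 and did not pass (adjusted p = 0.128 and 0.177). Next to Aldh4a1 and Aldh18a1, 1 of 26 measured genes of amino acid breakdown and proline synthesis rose and 0 fell. This was Prodh2, the hydroxyproline dehydrogenase, with 8.85 ± 0.08 in PSC-fed rats and 8.57 ± 0.12 in controls (0.28, SE 0.07, adjusted p = 0.0378). It missed the threshold in 9 of 12 such repeats (adjusted p up to 0.0851) and passed without PSC replicates 3 or 4 or control replicate 2. With all transcript clusters its adjusted p was 0.0656. Pycr3, a reductase that completes proline synthesis, had 0.20 (SE 0.05, adjusted p = 0.0511) with no overlap between the diets, and the ornithine aminotransferase gene Oat had 0.85 (SE 0.26, adjusted p = 0.0884).

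The list of bile acid and steroid genes next to Akr1c14 and Akr1d1 was chosen with earlier results of these data known. Its share of calls is therefore not independent of them. Of its 15 measured genes 3 rose (20%, against 0.716% of all genes) and 0 fell. They were the sulfotransferase gene Sult2a1 (2.32, SE 0.31, adjusted p = 0.0041), Amacr (0.50, SE 0.10, adjusted p = 0.0183) and Acox2 (0.37, SE 0.09, adjusted p = 0.0479). Amacr and Acox2 encode peroxisomal enzymes of side-chain shortening. Acox2 missed the threshold in 10 of the 12 repeats (adjusted p up to 0.113), passing without PSC replicate 4 or control replicate 2, and Amacr just missed it without control replicate 1. Acox2 also missed it with all transcript clusters (adjusted p = 0.0795) and with median centring (0.0551). In the remaining lists 0 passed in limma. Of the 21 genes of folate and one-carbon metabolism, the list of Aldh1l2, 3 had an unadjusted p below 0.05, with Folr1 at 0.20 and Mthfd1 at -0.28. Of the 13 other makers and users of aldehydes 4 did, with the xanthine dehydrogenase gene Xdh at 0.30 (SE 0.09, adjusted p = 0.0755) and Far1 at -0.28. Of the 19 carbonyl reductases and related dehydrogenases 3 did, with Cbr1, which reduces quinones and prostaglandins, at -0.46 (SE 0.12, adjusted p = 0.0622) and Hsd17b13, of lipid droplets, at 0.32 (SE 0.09, adjusted p = 0.0784).

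**Figure D5:**
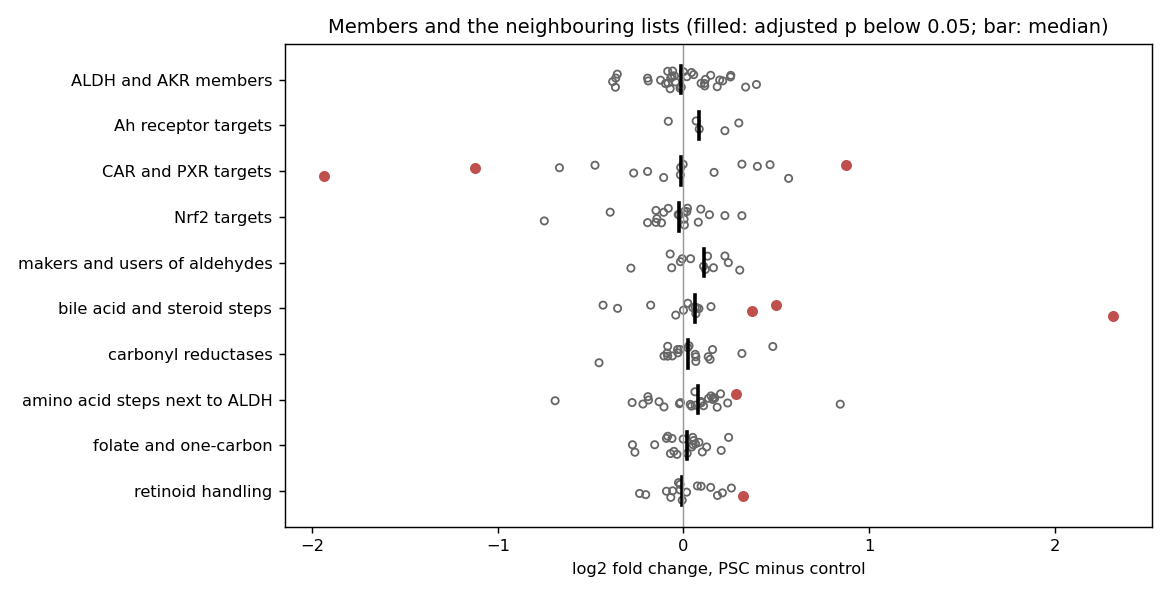
Difference between the diets (PSC minus control, log2 scale) for the 34 members in the top line and for the measured genes of 9 neighbouring lists under it, 1 point per gene, filled where the adjusted p was below 0.05, with a bar for the median. No member is filled, and the filled points lie among CAR and PXR targets, bile acid and steroid steps, amino acid steps and retinoid handling.

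Of the markers of other liver cells some passed the test, which 0.716% of all genes passed higher and 1.89% lower. An unadjusted p below 0.05 (limma) was found for 9 of 12 macrophage markers and 7 of 10 stellate cell markers. It was also found for 5 of 8 bile duct markers and 6 of 8 lymphocyte markers, against 19.1% of all genes. These lists too were chosen with earlier results of these data known. All 12 macrophage markers had positive differences (median 0.40, 1 rose), and their summed linear signal ranged from 2112 to 2774 in PSC-fed rats and from 1293 to 2309 in controls. All 10 measured stellate cell markers had negative ones (median -0.32, 4 fell), with sums of 1333 to 1909 in PSC-fed rats and 1713 to 2063 in controls. Of the 8 bile duct markers 3 had positive and 5 negative differences (median -0.16). Krt8, Krt18 and Spp1 fell, of which hepatocytes make the keratins Krt8 and Krt18 too, while Krt19 had 0.27 (adjusted p = 0.102). Their sums were 657 to 928 in PSC-fed rats and 969 to 1172 in controls, and Krt18 alone gave 61.9% of the summed signal in PSC-fed rats and 64.3% in controls. All 8 measured lymphocyte markers had positive differences (median 0.24) and Nkg7 rose, with sums of 271 to 336 in PSC-fed rats and 222 to 262 in controls. Of the 5 measured endothelial markers 0 passed in limma and 2 had an unadjusted p below 0.05, with 1 positive and 4 negative differences (median -0.093) and sums of 1106 to 1299 in PSC-fed rats and 1081 to 1226 in controls. No hepatocyte marker passed of 7, and 0 had an unadjusted p below 0.05 (median difference -0.002). Markers of pericentral and periportal hepatocytes had medians of 0.13 over 8 genes and 0.21 over 10 (Aldh1b1 among them), with 0 calls in limma and 2 and 5 at an unadjusted p below 0.05. The part of these shifts in the members' differences was not tested.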

How the data were processed

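Liver RNA of 12 rats, 6 per diet, was hybridised to 12 arrays. The authors deposited 1 log2 signal for each transcript cluster and array, and the submitters' processing notes name Affymetrix Expression Console with RMA. That method subtracts a background, equalises the arrays by quantiles and compresses changes of dim genes. Its version and settings are not given in the sources used.

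Symbols came from the platform annotation (18511 of 30347 clusters have 1 symbol, 575 several and 11261 none in the table used). A gene with several clusters took the one with the highest mean. All 34 members matched RefSeq by gene number with the same symbol. Diets were compared over 18166 genes with limma 3.58.1 in R 4.3.3 (two-sided, Benjamini-Hochberg over all genes, threshold 0.05). On a simulated data set the test returned the sizes of change put in. It missed most changes of the smallest size, which lay below the largest difference of the members, and recovered most of the larger ones. In that set it made false calls at a rate above the nominal one. The simulated set had independent noise and gave fewer calls than the real data, so its rates need not carry over to them. Groups came from the sample titles. The members and lists were chosen with earlier results of these data known. Of 242 genes in the lists, 210 were measured with a single symbol. Members with the 4 smallest p are given by their lowest, median and highest array. Of the lists, genes that passed and up to 2 others with the smallest p are named. Figures were drawn with matplotlib 3.10.9.

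Same-numbered arrays of the diets did not deviate together (correlations of -0.151 to 0.111 over 6 pairs, 1 above 0.1), so no pairing by number was seen. Such correlations cannot exclude a pairing with a small effect. Nothing in the files marks a batch. Alternatives were all clusters, a filter on dim genes, further quantile normalization, median centring, cyclic loess, a variance trend, weights for the arrays, a replicate block, averaged clusters per gene, a looser threshold (0.1), and leaving out each array.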

Additional observations from a re-analysis of the deposited data

Results flagged for a closer look

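In 6 of the 68 groups of arrays formed by a member and a diet, 1 array stood far from the other 5 by Dixon's criterion at 95%, which chance meets in about 1 of 20 groups. In each case the array was the lowest. Among the controls, replicate 6 had 8.71 for Akr1c12 (next lowest 8.96) and 8.74 for Aldh1l2 (next lowest 9.33), and replicate 2 had 5.36 for Aldh18a1 (next lowest 5.68) and 11.52 for Aldh8a1 (next lowest 11.7). Among the PSC-fed rats, replicate 2 had 6.17 for Akr1c15 (next lowest 6.35) and replicate 5 had 6.14 for Aldh16a1 (next lowest 6.57).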

How the results depend on the processing

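The count of members that passed stayed at 0 with all transcript clusters, repeated quantile normalization, median centring, cyclic loess, the mean of a gene's clusters and the replicate block. It was 1 higher and 1 lower without dim genes and with a variance trend (Aldh1l2 and Aldh1a1 in both), and 1 lower with array weights (Aldh18a1). Leaving out 1 array gave 0 to 1 higher and 0 to 2 lower, with 0 in 11 and 9 of 12 fits, and a threshold of 0.1 gave 2 higher and 3 lower. The number of all genes that passed was 254 with all clusters, 94 with the replicate block, 142 to 735 without 1 array (735 without PSC replicate 4, 142 without control replicate 1), and 1140 at the threshold of 0.1, against 473. The block added no call among the members. The labels do not say that a shared number pairs rats, and 1 of 6 PSC arrays correlated best with the control of its own number. Members with differences near 0 changed sign. Akr1b10 had -0.027 with repeated quantile normalization and -0.038 with cyclic loess. Aldh1a2 had -0.016 and -0.010, and Aldh1b1 0.016 and 0.0044, under the same settings. Without 1 array the range was -0.11 to 0.0033 for Akr1b1, -0.041 to 0.058 for Akr1b10, -0.13 to 0.0043 for Akr1c19, -0.043 to 0.0053 for Akr1d1, -0.17 to 0.053 for Akr7a3, -0.051 to 0.015 for Aldh1a3 and -0.13 to 0.11 for Aldh1b1. The cause was not tested. Akr1a1, at 0 with all arrays, took both signs, between -0.029 and 0.027. The other 25 members kept the sign of their difference under every alternative run. Of the 8 genes of neighbouring lists that passed, 7 did not pass with the replicate block (adjusted p 0.0566 to 0.131), and Sult2a1 did.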
